A study of Mus musculus with 6 samples.

Results

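The genes described here encode spliceosome proteins and RNA-binding splicing factors, measured in cultured mouse epidermal keratinocytes labelled p63 alphaKO and wild type. The set was chosen by name, with earlier results of these data known. It holds the genes listed under symbols of the Snrp, Srsf, Hnrnp, Sf3a and Sf3b families, with pseudogenes left out. There are 52 of them among 30349 genes listed: 4 proteins particular to the U1 or U2 snRNP, 8 Sm core genes, 9 SF3 genes, 11 SR genes and 20 hnRNP genes. Srsf12, with 1 read in 1 wild type library, was too low to test, and the other 51 were tested. The cells were primary keratinocytes of mice at postnatal day 2, grown in low-calcium medium (0.05 mM) with chelated serum and EGF, and gave 3 libraries of wild type (replicates 13, 14 and 15) and 3 of p63 alphaKO (replicates 9, 10 and 11). What the knockout lacks of Trp63 is not stated in the labels, which name no other allele and do not say whether each library is its own animal, so p-values measure the spread between these libraries, which may be technical.

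The spliceosome removes introns. Its small nuclear ribonucleoproteins (snRNPs) hold a ring of Sm or Sm-like proteins around an RNA: the U1 snRNP reads the start of an intron, and the U2 snRNP, with the SF3A and SF3B complexes, reads the branch site near its end. SR proteins mostly bind exons and help the spliceosome choose them, and hnRNP proteins coat the transcript and often act in the other direction. The alpha isoforms of p63, the transcription factor of stratified epithelia, carry a C-terminal SAM domain through which p63 has been reported to bind ABBP1, the product of Hnrnpab, and to affect the choice between the epithelial and mesenchymal exons of Fgfr2. Reads came from the 3' ends of transcripts, so the levels below are levels of a gene's RNA and say nothing of which exons were used.

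Most of these genes stood lower in p63 alphaKO, by small amounts, and none passed the threshold. Of the 51 tested, 43 had a log2 fold change below 0 (84.3%), against 49.3% of all 11716 genes tested. Their median log2 fold change was -0.24, that of all genes tested 0.01, and the values ran from -1.11 (Snrpa1) to 0.54 (Snrpn). These values are differences of mean log2(CPM + 1), with wild type subtracted from p63 alphaKO, and CPM is counts per 1000000 reads of a library. At a limma adjusted p under 0.05, 0 of the 51 passed, where 0.0427% of all genes tested did and 0.00854% did on the lower side. edgeR called 0 of them and DESeq2 called 2 (Snrpa1, adjusted p = 0.0495, and Hnrnpa2b1, adjusted p = 0.0352), where DESeq2 called 0.128% of all genes tested. At an unadjusted p under 0.05 there were 7 (13.7% of 51), all lower, where 6.36% of all genes tested had such a p and 3.35% had it on the lower side. The 3 libraries of each group did not overlap for 11 of the 51 (21.6%), all lower, against 11.5% of all genes tested, 5.09% on the lower side and 6.45% on the higher side. Taken 1 library at a time, 25, 25 and 26 of the 51 lay below the lowest wild type library in p63 alphaKO replicates 9, 10 and 11, against 23.9%, 22.3% and 32.9% of all genes tested. In bulk RNA, fewer cells of a kind and less RNA per cell cannot be told apart.

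**Figure D1:**
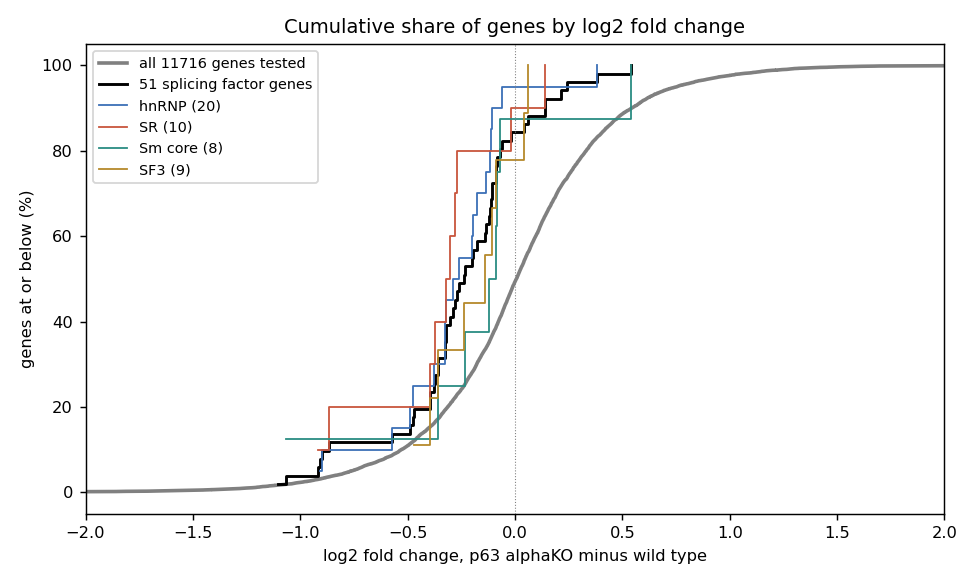
Cumulative share of genes (vertical axis, percent) at or below each log2 fold change, p63 alphaKO minus wild type (horizontal axis), for all genes tested (grey), the 51 splicing factor genes (black) and 4 families (coloured). At 0 the black line is at 84.3% and the grey line at 49.3%.

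The 7 genes of smallest p belong to 4 of the families: Snrpa1 of the U2 snRNP, Snrpf of the Sm ring, the SR genes Srsf1 and Srsf2, and Hnrnpa2b1, Hnrnpf and Hnrnpk. The promoters of the 5 with the smallest p, each lower in p63 alphaKO, are shown first. These 5 were picked by their p in these same data, and whether they share regulation was not tested. Each sequence is the 250 bases before the gene's RefSeq start on GRCm38.p6, read 5′ to 3′ on the gene's strand, at chr7:66060086-66060335 (plus strand) for Snrpa1, chr6:51469895-51470144 (minus strand) for Hnrnpa2b1, chr10:93589659-93589908 (minus strand) for Snrpf, chr11:116853095-116853344 (minus strand) for Srsf2 and chr11:88047123-88047372 (plus strand) for Srsf1. Capitals mark CCAAT, the box bound by NF-Y, and TTTCCCGC or TTTGGCGC, 2 forms of the site bound by E2F factors, on either strand; none occurs before Snrpa1. For Snrpa1 and Snrpf this start lies inside the bounds that GENCODE gives the gene.
Snrpa1: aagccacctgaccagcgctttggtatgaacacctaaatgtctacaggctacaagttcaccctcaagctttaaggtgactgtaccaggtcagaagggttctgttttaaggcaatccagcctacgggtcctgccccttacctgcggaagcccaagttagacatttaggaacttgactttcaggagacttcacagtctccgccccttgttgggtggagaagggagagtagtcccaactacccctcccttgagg
Hnrnpa2b1: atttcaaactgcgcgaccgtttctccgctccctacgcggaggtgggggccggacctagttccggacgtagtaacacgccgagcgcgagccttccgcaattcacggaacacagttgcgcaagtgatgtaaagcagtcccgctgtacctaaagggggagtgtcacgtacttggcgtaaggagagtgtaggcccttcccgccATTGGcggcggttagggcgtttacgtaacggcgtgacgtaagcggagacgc
Snrpf: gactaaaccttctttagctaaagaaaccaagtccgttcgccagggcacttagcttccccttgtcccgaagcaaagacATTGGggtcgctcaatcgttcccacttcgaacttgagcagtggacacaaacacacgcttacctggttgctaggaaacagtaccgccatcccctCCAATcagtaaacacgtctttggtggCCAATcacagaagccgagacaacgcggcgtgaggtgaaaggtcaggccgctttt
Srsf2: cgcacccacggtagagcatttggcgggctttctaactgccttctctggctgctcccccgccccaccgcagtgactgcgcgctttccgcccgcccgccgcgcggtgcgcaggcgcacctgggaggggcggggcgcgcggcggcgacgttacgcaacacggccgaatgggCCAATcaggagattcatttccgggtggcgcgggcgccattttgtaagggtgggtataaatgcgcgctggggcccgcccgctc
Srsf1: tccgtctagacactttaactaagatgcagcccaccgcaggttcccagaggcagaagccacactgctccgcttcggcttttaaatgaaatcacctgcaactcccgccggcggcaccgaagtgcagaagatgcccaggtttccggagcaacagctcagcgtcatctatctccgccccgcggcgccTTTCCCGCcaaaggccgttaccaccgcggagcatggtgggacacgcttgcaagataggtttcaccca

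Matches were counted on both strands over this length of sequence, at the first start listed for each gene, and no 2 different motifs overlapped in the 5 promoters shown. CCAAT was present in 3 of the 5 (Hnrnpa2b1, Snrpf and Srsf2), with 3 copies before Snrpf, and an E2F form in 1 (Srsf1). RefSeq promoters were matched for 46 of the 52 genes. Of these, 21 (45.7%) held CCAAT, against 36.7% of the promoters of genes tested and 34.5% of all 27025 promoters. The E2F forms stood in 3 of 46 (6.52%; Srsf1, Srsf10 and Hnrnpul1), against 2.68% of genes tested and 1.35% of all. CCGGAAG, the core bound by ETS factors, stood in 15 of 46 (32.6%) and in none of the 5 shown, against 14.5% and 7.05%. GGGCGG, bound by SP and KLF factors, stood in 32 of 46 (69.6%), against 61.0% and 32.9%. AANATGGC, a form of the YY1 site, stood in 2 of 46 (4.35%), against 4.72% and 3.93%, and TATAAA in 5 (10.9%), against 6.18% and 13.0%. The NRF1 palindrome stood in 0 of 46, against 1.70% and 0.781%. The decamer bound by the p53 family, p63 among them, stood in 1 of 46 (2.17%; Snrpe), against 5.97% and 7.18%. A match describes the letters alone.

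Snrpa1 encodes the A' protein of the U2 snRNP, a leucine-rich repeat protein that helps seat the B'' protein on U2 RNA. It read 57.5, 78.96 and 81.64 CPM across wild type replicates 13, 14 and 15, against 30.6, 31.32 and 37.03 CPM across p63 alphaKO replicates 9, 10 and 11. Every p63 alphaKO library was below every wild type library, and the p63 alphaKO libraries lay close together. The means were 72.7 ± 13.2 CPM (SD, n = 3) and 33.0 ± 3.52 CPM (SD, n = 3), 54.6% lower in p63 alphaKO, with a log2 fold change of -1.11 (SE 0.26, 95% interval -1.65 to -0.56, limma adjusted p = 0.310). The gene lies on chromosome 7 (66059003 to 66074587, plus strand, GRCm38). The other 3 genes particular to U1 or U2 overlapped between the groups. Snrpb2, encoding that B'' protein and the gene of this family with the highest CPM, read 222.14, 213.56 and 281.12 CPM across wild type against 225.13, 255.6 and 362.07 CPM across p63 alphaKO (0.21, 95% interval -0.28 to 0.71), a value that was 0.02 without p63 alphaKO replicate 11 and 0.36 without replicate 9. The U1 genes Snrpa and Snrpc stood at 0.14 (-0.46 to 0.75) and 0.24 (-0.27 to 0.76). Whether the fold change of Snrpa1 differs from those of its partners was not tested.

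Among the Sm genes, which encode the ring shared by the U1, U2, U4 and U5 snRNPs, Snrpf had the lowest value. It read 88.29, 97.3 and 61.62 CPM across wild type replicates 13, 14 and 15, against 37.9, 30.66 and 47.61 CPM across p63 alphaKO replicates 9, 10 and 11. The groups did not overlap; wild type replicate 15 and p63 alphaKO replicate 11 came nearest to each other. The log2 fold change was -1.07 (SE 0.27, 95% interval -1.64 to -0.49, limma adjusted p = 0.392), with means of 82.4 ± 18.6 and 38.7 ± 8.50 CPM (SD, n = 3 each). Snrpf lies on chromosome 10 (93583029 to 93589706, minus strand). Snrpb, encoding the SmB protein, read 191.66, 184.65 and 190.59 CPM across wild type against 153.89, 150.96 and 178.09 CPM across p63 alphaKO, again with no overlap but a smaller difference (-0.23, limma adjusted p = 0.922). Snrpd1, Snrpd2, Snrpd3, Snrpe and Snrpg had values of -0.36, -0.09, -0.12, -0.07 and -0.09, all overlapping between the groups. Of these, Snrpd3, with the highest CPM of the Sm genes, read 309.49, 238.43 and 454.24 CPM across wild type against 253.9, 307.58 and 334.44 CPM across p63 alphaKO, and its value was 0.13 without wild type replicate 15. Snrpn, the imprinted relative of Snrpb best known from the brain, had the highest value of all 51 genes, with 18.22, 13.06 and 27.95 CPM across wild type against 32.88, 18.66 and 35.27 CPM across p63 alphaKO (0.54, 95% interval -0.19 to 1.28, overlapping). In all, 7 of the 8 Sm genes were below 0, and 1 had an unadjusted p under 0.05.

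The SF3A and SF3B genes, whose proteins clamp the U2 snRNP on the branch site, spanned the narrowest range of the 5 families. Their values ran from -0.47 to 0.06, 7 of 9 below 0, with a median of -0.14 and no unadjusted p under 0.05. Sf3a1 was the 1 gene of these with no overlap, with 76.04, 82.69 and 67.66 CPM across wild type against 65.3, 60.32 and 39.97 CPM across p63 alphaKO (-0.47, 95% interval -1.02 to 0.08, limma adjusted p = 0.816). That value was -0.26 without p63 alphaKO replicate 11, the lowest library. Sf3b1, the large subunit often mutated in blood cancers, stood at -0.24 (-0.70 to 0.23). Sf3b2, with the highest CPM of the family, read 565.25, 483.07 and 510.14 CPM across wild type against 642.51, 583.18 and 405.56 CPM across p63 alphaKO (0.04, -0.43 to 0.52), with p63 alphaKO libraries both above and below the wild type range, and its sign changed without p63 alphaKO replicate 9 (-0.092). Sf3a2, Sf3a3, Sf3b3, Sf3b4, Sf3b5 and Sf3b6 stood at -0.36, -0.14, 0.06, -0.40, -0.11 and -0.09, all overlapping between the groups.

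Of the SR genes, 9 of 10 tested were below 0, led by Srsf2 and Srsf1. Srsf2 encodes SC35, an exon-binding SR protein. It read 199.2, 281.95 and 202.34 CPM across wild type against 110.05, 150.29 and 101.1 CPM across p63 alphaKO. No p63 alphaKO library reached the lowest wild type library (log2 fold change -0.92, SE 0.24, 95% interval -1.42 to -0.41, limma adjusted p = 0.424). Srsf1 encodes SF2/ASF, the SR protein first found as a general splicing factor. It read 172.18, 223.82 and 152.15 CPM across wild type against 87.68, 99.64 and 109.33 CPM across p63 alphaKO. Its groups did not overlap either (-0.87, SE 0.23, 95% interval -1.35 to -0.38, limma adjusted p = 0.460). Both genes lie on chromosome 11, far apart, Srsf2 at 116849901 to 116853094 (minus strand) and Srsf1 at 88047373 to 88053755 (plus strand). In wild type both were highest in replicate 14, without which their values were -0.75 and -0.71.

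The other SR genes differed less. Srsf5 read 147.05, 132.43 and 140.4 CPM across wild type against 79.91, 126.63 and 117.55 CPM across p63 alphaKO, with no overlap, and its value moved from -0.40 to -0.20 without p63 alphaKO replicate 9. Srsf3, Srsf4, Srsf7, Srsf9 and Srsf10 stood at -0.37, -0.30, -0.28, -0.32 and -0.27, all overlapping between the groups. Srsf6 was at -0.02 (95% interval -0.49 to 0.46). Srsf11, with the highest CPM of the family averaged over the 6 libraries (Srsf3 was higher in all 3 wild type libraries), was the 1 SR gene above 0, with 289.06, 311.48 and 367.84 CPM across wild type against 368.98, 300.59 and 401.45 CPM across p63 alphaKO (0.14, -0.31 to 0.60), a value that was 0.05 without p63 alphaKO replicate 11 and 0.26 without replicate 10.

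**Figure D2:**
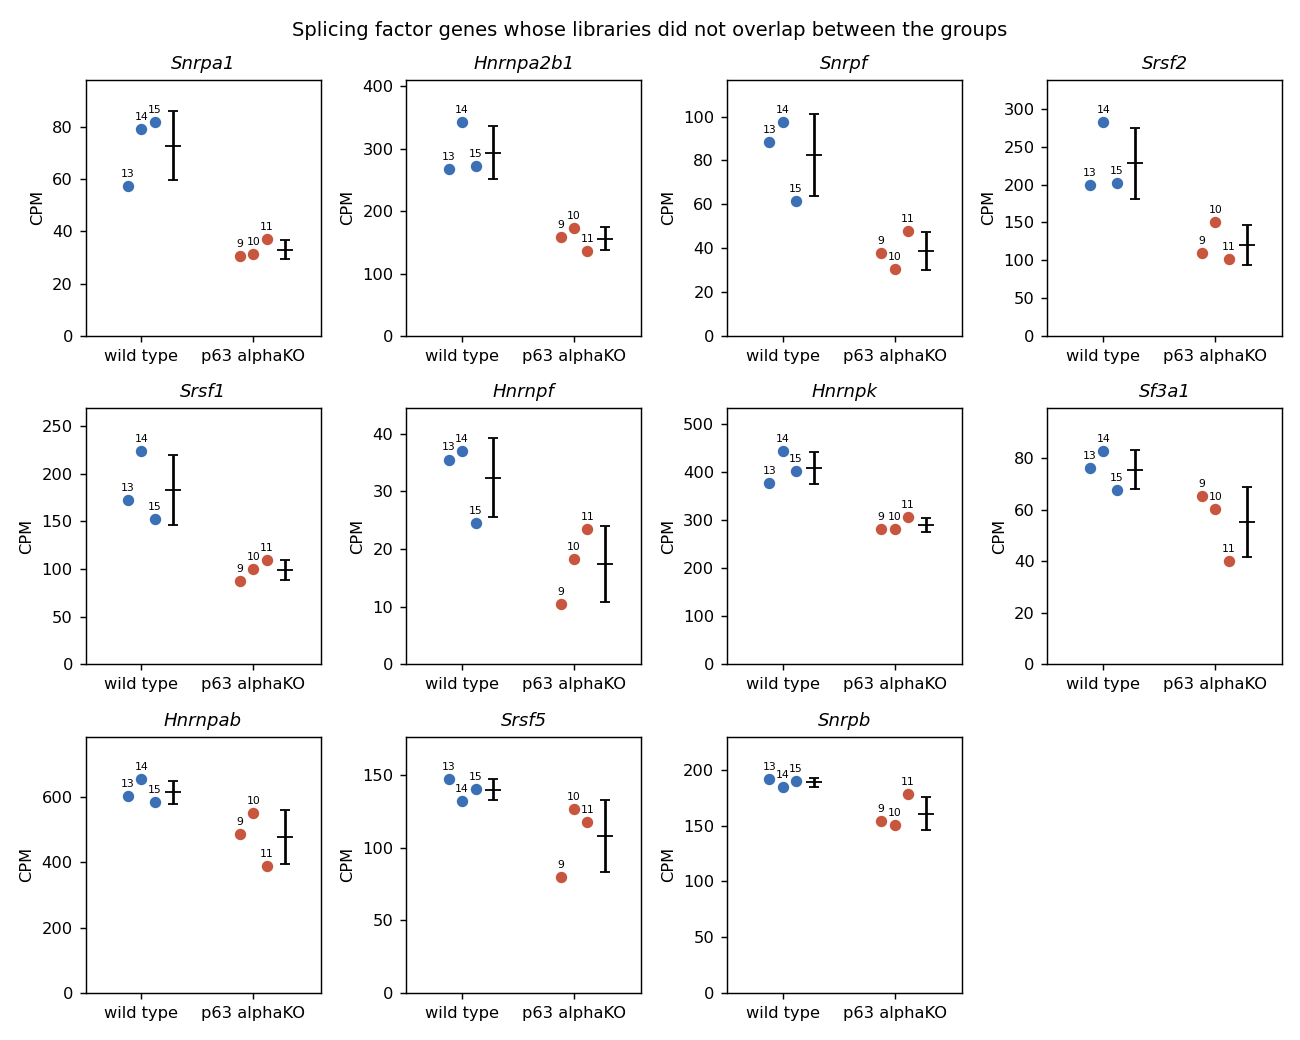
Level in CPM (vertical axes, from 0) of the 11 splicing factor genes whose groups did not overlap, in each wild type (blue) and p63 alphaKO (red) library, numbered by replicate, with the mean and SD of each group in black. In every panel all red points lie below all blue points; in the panels of Hnrnpf, Srsf5, Snrpb and Sf3a1 the nearest libraries almost meet.

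Among the hnRNP genes, 19 of 20 were below 0, with a median of -0.27. Hnrnpa2b1, encoding the hnRNP A2 and B1 proteins that bind exonic and intronic silencers, read 268.01, 342.25 and 271.91 CPM across wild type against 159.37, 172.62 and 136.36 CPM across p63 alphaKO. The groups were well apart, with means of 294.1 ± 41.8 and 156.1 ± 18.3 CPM (SD, n = 3 each), 46.9% lower in p63 alphaKO (log2 fold change -0.91, SE 0.22, 95% interval -1.37 to -0.45, limma adjusted p = 0.330). Hnrnpa2b1 lies on chromosome 6 (51460932 to 51469894, minus strand), 466 bases from the start of Cbx3, a heterochromatin protein gene read in the other direction. Cbx3 read 101.17, 98.23 and 144.21 CPM across wild type against 103.2, 102.97 and 69.36 CPM across p63 alphaKO, overlapping (-0.32, limma adjusted p = 0.904). Likewise Mfsd11, whose start lies 654 bases from that of Srsf2, read 20.11, 23.63 and 22.24 CPM across wild type against 29.23, 19.99 and 31.74 CPM across p63 alphaKO (0.26, limma adjusted p = 0.936). In all, 16 of the 52 genes had a protein-coding gene of the opposite strand starting within 1000 bases.

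Hnrnpk, whose protein binds C-rich RNA and DNA, had the smallest standard error of the 51 genes. It read 377.67, 444.22 and 402.46 CPM across wild type against 281.76, 281.92 and 307.4 CPM across p63 alphaKO, with no overlap (-0.49, SE 0.20, 95% interval -0.92 to -0.06, limma adjusted p = 0.758). Hnrnpf, which binds G-rich tracts, read 35.5, 36.99 and 24.46 CPM against 10.5, 18.33 and 23.51 CPM (-0.90, SE 0.34, limma adjusted p = 0.729). Wild type replicate 15 and p63 alphaKO replicate 11 all but met, and without p63 alphaKO replicate 9 the value was -0.59. At least 100 of the last 300 bases of Hnrnpf transcripts align to 7 other annotated genes at 95% identity or more. Those of Hnrnpk align so to 2, and reads of these 2 genes may have been shared or lost in counting. Such copies exist for 10 of the 52 genes, most of all for Hnrnpa3 (31), whose value was -0.32 (95% interval -0.86 to 0.22). Of the copies, only Gm17190 and Gm6793 (of Hnrnpa3) and Gm5145 (of Snrpa) were among the genes listed, each with 0 reads.

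Hnrnpab, the gene of the p63-binding protein ABBP1, had the highest CPM of the hnRNP genes. It read 603.27, 654.67 and 585.43 CPM across wild type replicates 13, 14 and 15, against 488.62, 552.85 and 389.69 CPM across p63 alphaKO replicates 9, 10 and 11. The groups did not overlap, but the difference was small and did not pass: 614.5 ± 36.0 against 477.1 ± 82.2 CPM (SD, n = 3 each), 22.4% lower, with a log2 fold change of -0.38 (SE 0.21, 95% interval -0.83 to 0.07, limma adjusted p = 0.821). It was -0.24 without p63 alphaKO replicate 11. The gene lies on chromosome 11 (51600100 to 51606847, minus strand).

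The remaining hnRNP genes overlapped between the groups. Hnrnpa0 (-0.57) and Hnrnpr (-0.48) were lowest of them, and Hnrnpa0 was at 174.57 CPM in p63 alphaKO replicate 11 against 362.58 and 382.23 CPM in replicates 9 and 10 (-0.21 without replicate 11). Hnrnpu (-0.33), Hnrnpd (-0.33), Hnrnpul2 (-0.29), Hnrnpul1 (-0.26), Hnrnpdl (-0.20), Hnrnph1 (-0.20), Hnrnpc (-0.18), Hnrnpa1 (-0.13), Hnrnpm (-0.12), Hnrnph2 (-0.11), Hnrnpl (-0.11) and Hnrnpll (-0.06) followed. Hnrnph3 was the 1 gene above 0, with 8.17, 12.75 and 13.02 CPM across wild type against 14.61, 11.66 and 18.81 CPM across p63 alphaKO (0.38, 95% interval -0.37 to 1.13). For 39 of the 51 genes of all families the 95% interval lay between -1 and 1, so for these a change of 2-fold or more in either direction fell outside the interval.

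**Figure D3:**
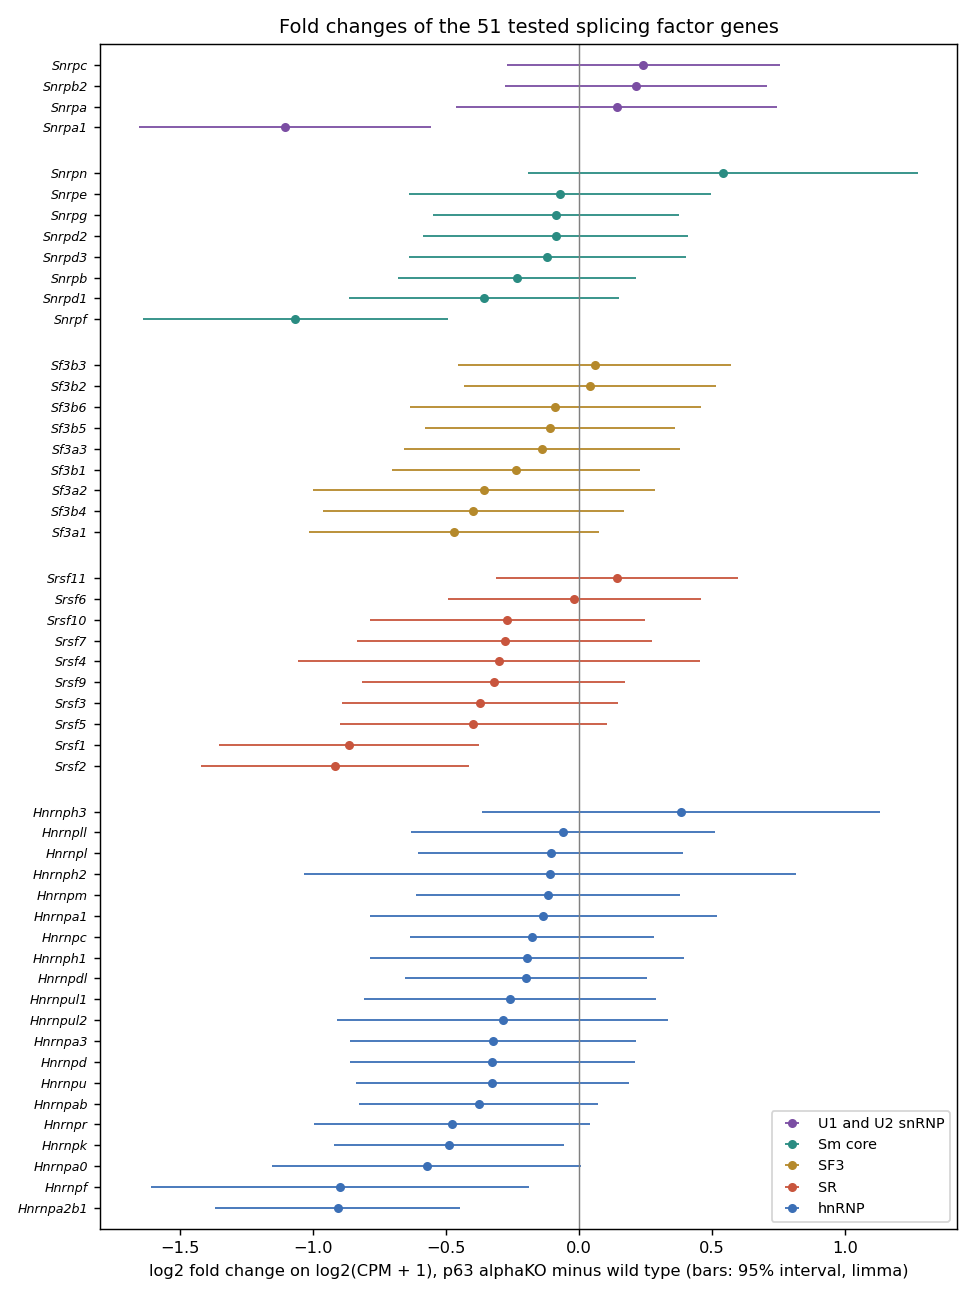
Log2 fold change, p63 alphaKO minus wild type (horizontal axis), of each of the 51 tested genes (rows) with its 95% interval from limma, coloured by family. The 7 intervals that leave out 0 all lie below it: Snrpa1, Snrpf, Srsf1, Srsf2, Hnrnpf, Hnrnpk and Hnrnpa2b1.

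Summed over each family, SR and hnRNP genes were lower in every p63 alphaKO library than in any wild type library, and the other families overlapped. The SR total was 1570, 1708 and 1800 CPM across wild type replicates 13, 14 and 15 and 1210, 1371 and 1510 CPM across p63 alphaKO replicates 9, 10 and 11. Its p63 alphaKO mean stood at 80.6% of the wild type mean. The hnRNP total was 4215, 4516 and 3905 CPM against 3578, 3712 and 2768 CPM, at 79.6%. The Sm total was 1303, 1304 and 1623 CPM against 1104, 1104 and 1527 CPM. The SF3 total was 1408, 1284 and 1273 CPM against 1387, 1253 and 1140 CPM, and that of the U1 and U2 genes 407, 405 and 517 CPM against 419, 411 and 572 CPM. Within the groups, the Sm total was highest in wild type replicate 15 and p63 alphaKO replicate 11, while the hnRNP total was lowest in the same libraries. Not every gene followed its total. Snrpf was lowest of wild type in replicate 15 (61.62 CPM), and Hnrnpk was highest of p63 alphaKO in replicate 11 (307.4 CPM).

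**Figure D4:**
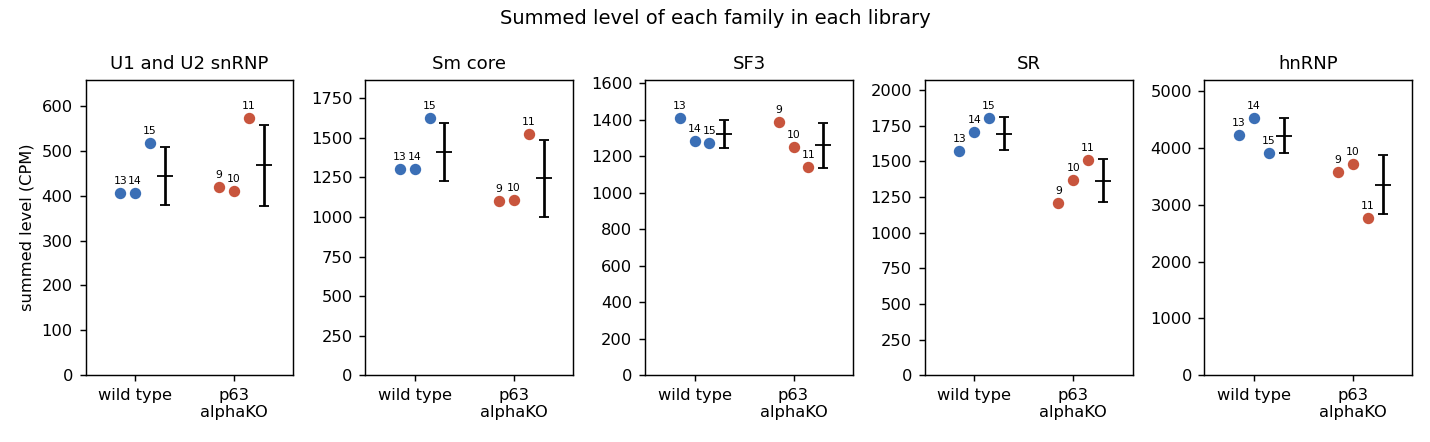
Summed CPM (vertical axes, from 0) of each family in each wild type (blue) and p63 alphaKO (red) library, numbered by replicate, with the mean and SD of each group in black. The groups do not overlap for the SR and hnRNP sums and overlap for the sums of the other 3 families.

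These same libraries stood apart over all genes. The first principal component (33.2% of the variance) placed p63 alphaKO replicate 11 at 61.2 and wild type replicate 15 at 13.6, and the other 4 libraries between -26.9 and -8.74. Genes with a longest annotated transcript of 183 to 2175 bases had a median of 0.23 above their 6-library mean (log2 scale) in p63 alphaKO replicate 11 and 0.10 above it in wild type replicate 15, while genes with transcripts of 4816 bases or more stood at -0.27 and -0.15. In the other 4 libraries these long transcripts stood at 0.05 to 0.18. The median longest transcript was 1238 bases for the Sm genes and 3714 bases for the hnRNP genes. Across the 51 genes, Spearman's rho between transcript length and the deviation was -0.39 in p63 alphaKO replicate 11 and -0.21 in wild type replicate 15, and 0.10 to 0.40 in the other 4; these genes share their libraries and are not independent. The part of transcript length or RNA quality in the differences between the groups was not tested.

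Leaving out p63 alphaKO replicate 11 moved the hnRNP median from -0.27 to -0.13 (15 of 20 below 0), the Sm median from -0.10 to -0.30, the SR median from -0.31 to -0.43 and the U1 and U2 median from 0.18 to 0.07. Leaving out p63 alphaKO replicate 10 took the hnRNP median to -0.43, with 4 of 8 Sm genes below 0 and a Sm median of -0.07. Leaving out p63 alphaKO replicate 9, where the SR total was lowest, took the SR median to -0.20. The SF3 median was -0.25 without wild type replicate 15, and the Sm median -0.19 without wild type replicate 14. Without both p63 alphaKO replicate 11 and wild type replicate 15, 42 of the 51 genes were below 0 and 3 passed the threshold, Snrpf (-1.42, limma adjusted p = 0.00609), Srsf1 (-1.06, 0.0150) and Hnrnpa2b1 (-0.86, 0.0361), where 0.413% of all genes tested passed. Snrpa1 did not pass there (-1.10, limma adjusted p = 0.0687). This choice was made after seeing the data.

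**Figure D5:**
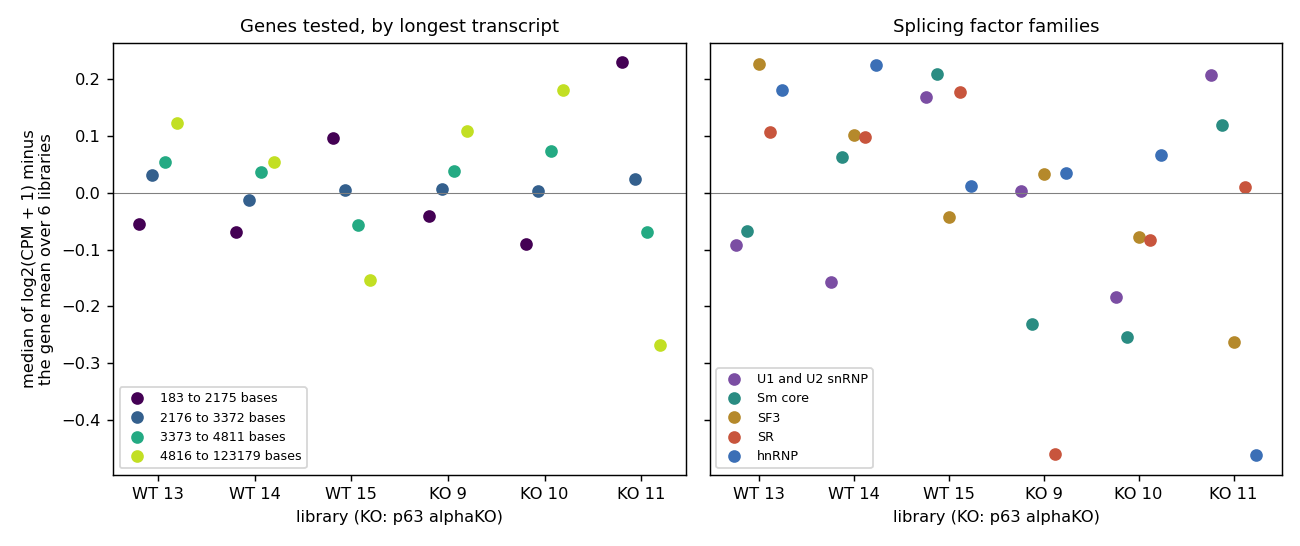
Median over genes of log2(CPM + 1) minus each gene's mean over the 6 libraries (vertical axes), by library (horizontal axes). Left, 4 near-equal classes by longest annotated transcript, of the 11553 genes tested that had a transcript length. Right, the splicing factor families. In p63 alphaKO replicate 11 the class of shortest transcripts stands at 0.23 and the longest at -0.27, and on the right the Sm and hnRNP families stand at 0.12 and -0.46.

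Other genes of the splicing machinery were also more often below 0 than above it. In 9 further lists with 147 tested genes, 98 were below 0 (66.7%, against 49.3% of all genes tested), with a median of -0.09. By limma 0 passed the threshold, and 6 had an unadjusted p under 0.05, all lower. That share, 4.08%, was near the background of 6.36% in either direction and 3.35% on the lower side. The groups did not overlap for 8.84% of the 147, with 8 genes lower and 5 higher, against 11.5% of all genes tested. Other snRNP proteins had 19 of 30 below 0 (median -0.05; Snrnp35 at -0.72, Snrnp70 at -0.33 and Ppih at -0.42). The Lsm genes, which encode Sm-like proteins, had 5 of 10 (-0.03; Lsm1 at 0.53, Lsm5 at -0.27, Lsm10 at 0.24). Factors of early splice site recognition had 9 of 12 (-0.08), with Rbm17, which binds SF3B1, at 176 ± 33.3 CPM in wild type against 121 ± 20.2 CPM in p63 alphaKO (SD, n = 3 each; -0.53, limma adjusted p = 0.767), Rbm25 at -0.45 and Sf1 at -0.42. The Prp19 and catalytic group had 14 of 25 (-0.05; Isy1 at -0.79, Cwc25 at 0.51, Dhx16 at -0.50). Exon junction genes had 9 of 10 (-0.16; Sap18 at -0.44, Magohb at -0.57, Acin1 at -0.21). The SMN pathway, which loads Sm proteins onto snRNAs, had 11 of 13 (-0.24; Coil at -0.75, Ddx20 at -0.44, Gemin6 at -0.52). Kinases of SR proteins had 2 of 7 below 0 (0.22; Clk3 at 0.43, Srpk2 at 0.28, Clk2 at 0.36).

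Regulators of alternative splicing had 23 of 32 below 0 (median -0.13; Celf2 at -1.04, Syncrip at -0.54, Khsrp at -0.48). Ewsr1, an RNA-binding gene of the FET family, read 97.72, 122.48 and 64.16 CPM across wild type against 43.38, 53.99 and 40.56 CPM across p63 alphaKO, with no overlap (-0.99, SE 0.27, limma adjusted p = 0.475). Its list of FET and paraspeckle genes had 6 of 8 below 0 (-0.05; Sfpq at -0.54, Tardbp at -0.41). Esrp1 and Esrp2, chosen for naming by their role after their values were seen, encode the epithelial proteins that promote the epithelial exon of Fgfr2. Esrp1 read 120.34, 141.44 and 120.07 CPM across wild type against 181.75, 103.31 and 85.81 CPM across p63 alphaKO (-0.11, SE 0.27). Esrp2 read 102.43, 93.88 and 60.67 CPM against 94.53, 69.31 and 65.24 CPM (-0.15, SE 0.27), and both overlapped between the groups.

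Fgfr2, the transcript whose splicing has been tied to p63 alpha, read 35.5, 28.91 and 30.81 CPM across wild type against 42.93, 35.99 and 18.81 CPM across p63 alphaKO. The p63 alphaKO libraries lay on both sides of the wild type range (-0.04, SE 0.32, limma adjusted p = 0.997). Fgfr1 (-1.70, limma adjusted p = 0.646) and Fgfr3 (-1.15, limma adjusted p = 0.775) overlapped between the groups, and Fgfr4 was listed at 0 throughout. Summed, the 4 receptor genes read 77.29, 68.39 and 44.15 CPM across wild type replicates 13, 14 and 15. Across p63 alphaKO replicates 9, 10 and 11 they read 63.93, 50.99 and 22.34 CPM. Within the groups, this sum was lowest in wild type replicate 15 and p63 alphaKO replicate 11. Trp63 read 38.02, 53.16 and 48.92 CPM across wild type against 49.78, 59.32 and 57.01 CPM across p63 alphaKO (0.25, limma adjusted p = 0.926), which does not check the genotype, since 3' reads per gene do not separate the isoforms.

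Markers of dividing cells were lower in p63 alphaKO. The 20 mitosis genes were all below 0 (49.3% of all genes tested were), with a median of -0.68, and totalled 1358, 1546 and 2389 CPM across wild type replicates 13, 14 and 15, against 1107, 1228 and 1039 CPM across p63 alphaKO replicates 9, 10 and 11, with no overlap. Of these 20, 0 passed the threshold and 10 had an unadjusted p under 0.05, against 6.36% of all genes tested and 3.35% on the lower side. The 10 keratinocyte markers, 8 of 10 below 0 with a median of -0.06, summed to 25963 to 36763 CPM in the 6 libraries. Of them Krt15 was lowest, at 16.34, 8.39 and 17.79 CPM against 2.74, 4.67 and 1.18 CPM, with no overlap (-2.02, limma adjusted p = 0.299), and the other 9 overlapped between the groups. The level of Krt15 in p63 alphaKO replicate 11 was under 3 reads (1.76 CPM in that library). The 10 muscle genes totalled 79.2, 84.6 and 694 CPM across wild type replicates 13, 14 and 15, against 17.4 to 74.7 CPM across the p63 alphaKO libraries, so wild type replicate 15 stood far above all others and p63 alphaKO replicate 11 close to the other 2 wild type libraries. All 7 tested were below 0 (median -2.65), and Myh3 and Myh8 were at 0 throughout. Of these 7, 0 passed the threshold and 6 had an unadjusted p under 0.05 by limma, against 6.36% of all genes tested. The groups did not overlap for 2 of them, against 11.5% of all genes tested. The 9 melanocyte genes totalled 308 to 823 CPM across wild type libraries against 232 to 1026 CPM across p63 alphaKO (6 of 9 below 0, -0.23), and the 9 fibroblast genes 18.8 to 48.4 against 5.88 to 46.3 CPM (7 of 7 below 0, -0.61; Lum at 0 throughout). The 7 immune genes summed to at most 8.67 CPM (1 tested, 0.19; Cd207, H2-Aa and Cd3e at 0) and the 5 endothelial genes at most 5.29 CPM (2 tested, 0.43 and 0.69; Kdr at 0). The part of cell division or of other cells in the levels of the splicing genes was not tested.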

How the data were processed

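RNA of 6 libraries was profiled by 3' digital gene expression. The submitters' processing notes name STAR, HTSeq and mm10 without roles; for versions, annotation, filters, strand and molecular identifiers, sources used here give nothing. Values deposited by the authors are CPM: columns sum to 999047 to 999508, and 100% of those above 0 fall within 0.1 of a whole read count. That gave 1699716 to 3215333 reads per library, where 3 reads are 0.933 to 1.76 CPM (counting error only). Depth differed with genotype. Replicates 13, 14 and 15 (wild type) held 3180984, 3215333 and 3146374 reads, and replicates 9, 10 and 11 (p63 alphaKO) held 2188705, 2999246 and 1699716. Each knockout library was thus read less deeply than all of the wild type ones. The part of depth in the differences between the groups was not tested.

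Genes averaging 1 CPM or more (11716) were tested with limma 3.58.1 (R 4.3.3, trend, two-sided) on log2(CPM + 1), with Benjamini-Hochberg adjustment over all of them and a threshold of 0.05. Alternatives were edgeR 4.0.16 and DESeq2 1.42.0 on recovered reads, pseudocounts, filters, scalings, no trend and leaving out libraries. The script was tested on simulated data. Members and lists were chosen with earlier results of these data known. Members with an unadjusted p under 0.05 or no overlap, Hnrnpab and the highest of each family by CPM are given per library; lists name up to 3 genes of smallest p. Positions, transcript lengths and 3' end matches (blastn, last 300 bases, at least 100 aligned) come from GENCODE (GRCm38), promoters from RefSeq (GRCm38.p6).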

Additional observations from a re-analysis of the deposited data

How the results depend on the processing

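The count of splicing factor genes below 0 was 43 to 44 of those tested under every alternative that kept all 6 libraries, and 38 to 43 when 1 library was left out. The count with an unadjusted p under 0.05 was 6 to 8 and 5 to 9 in the same sets, and 10 without both wild type replicate 15 and p63 alphaKO replicate 11, an alternative added after seeing the data. The share of all genes with such a p moved too, from 6.36% to 3.69% when wild type replicate 14 was absent, 7.69% when p63 alphaKO replicate 11 was, and 9.33% with both libraries left out. The median log2 fold change of these genes was -0.26 to -0.21 over the fits that left out 1 library (-0.21 without p63 alphaKO replicate 11). Genes of this set past the threshold numbered 2 by DESeq2, 3 without both libraries and 0 in all other fits. Over all genes tested, 5 passed; the number was 2 with a pseudocount of 0.5, 3 with a pseudocount of 5, 1 with no filter, 2 with a minimum mean of 5 CPM, 0 with no trend, 2 by edgeR, 15 by DESeq2, 2 to 13 when 1 library was left out and 48 without both libraries. The cause was not tested. Log2 fold changes by DESeq2 were -1.16 for Snrpa1 and -0.93 for Hnrnpa2b1. With 1 library left out, Sf3b2 ran from -0.092 to 0.24, changing sign when p63 alphaKO replicate 9 (-0.092) or 10 (-0.022) or wild type replicate 14 (-0.0090) was absent. Snrpd3 ran from -0.34 to 0.13, changing sign when wild type replicate 15 was absent (0.13), and stood at 0.041 without both libraries. No paired analysis was possible because the groups share no replicate numbers. Leaving out a library leaves 2 in its group, and depth limits low genes such as Hnrnpf, with 23 to 55 reads in the p63 alphaKO libraries.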
